A study of Mus musculus with 51 samples.

Results

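The Slc25 genes encode the mitochondrial carriers, membrane proteins of which most sit in the inner mitochondrial membrane and pass nucleotides, phosphate, organic acids, amino acids, cofactors and iron between the cytosol and the matrix. In skeletal muscle the family is best known for the ADP/ATP carrier, which exports the ATP made in the matrix, for the phosphate carrier that feeds ATP synthase, and for the carriers of the malate-aspartate shuttle, which moves reducing equivalents from glycolysis into the mitochondrion. The mitoferrins bring in the iron used for haem and iron-sulphur clusters. A few members differ from this pattern, such as Slc25a17 in the peroxisome and Slc25a46 in the outer mitochondrial membrane.

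Members were all genes of both count tables whose symbol begins with Slc25a, which gave 45 genes among 48321 gene symbols, with 2 carrier genes and 1 pseudogene symbol left out. In both batches 36 of the 45 passed the filter on low counts and were tested. The other 9 (Slc25a2, Slc25a18, Slc25a21, Slc25a30, Slc25a31, Slc25a41, Slc25a43, Slc25a48 and Slc25a54) never had more than 13 counts in a library. Of these, Slc25a48 is described with the carriers of less settled substrate.

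The 51 libraries came from whole gastrocnemius, a mainly fast-twitch calf muscle, of 1 mouse each. They address what the clock protein BMAL1 does, and what the hypoxia-inducible factors (HIF) that build up once VHL is gone do, in the muscle of mice on a high-fat diet. In batch 1, Bmal1fx/fx controls and Bmal1KO mice were kept on regular chow (4 controls, 3 knockouts) or on high-fat diet (7 controls, 5 knockouts). In batch 2 every mouse was on high-fat diet: 8 Bmal1fx/fx controls and 4 Bmal1KO, 6 Vhlfx/fx controls and 4 VhlKO, and 6 Bmal1fx/fx;Vhlfx/fx controls and 4 Bmal1KO;VhlKO, here called the double knockout. The knockout of Bmal1 is restricted to skeletal muscle per the series' design text. The sources used here do not give the Cre driver, the deleted exons, ages, strain or time of day of harvest. Animals bear the numbers of the labels, so the Bmal1 knockouts of batch 2 are 6 to 9 and their controls 8 to 15. The column names of the batch 2 counts number some of these knockouts otherwise, and those numbers are not used here.

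Depth ran from 8722659 to 14706388 counts per library in batch 1 and from 6945247 to 14717795 in batch 2. Libraries were made with a 3′ tag kit that reads the end of each transcript once, so counts scaled to a common library size (CPM) are not divided by length, and levels of different carriers are compared on that scale. Arntl, the gene of BMAL1, lay at 5.29 to 9.03 CPM in the batch 1 knockouts on high-fat diet and at 12.2 to 18.7 CPM in their controls. In batch 2 it overlapped, at 8.16 to 10.5 CPM in Bmal1 knockouts and 8.60 to 12.9 CPM in controls. Vhl lay at 0.796 to 2.69 CPM in Vhl knockouts and at 1.69 to 5.09 CPM in controls. In double knockouts Arntl lay at 9.32 to 14.0 CPM (controls 13.8 to 17.8 CPM) and Vhl at 1.64 to 3.84 CPM (controls 3.48 to 5.62 CPM). A 3′ tag outside the deleted part, and other cells of whole muscle, can hold such counts, so neither gene checks the labels. Pdk1, a known HIF target, lay at 66.0 to 78.7 CPM in Vhl knockouts and 73.0 to 89.4 CPM in double knockouts, and at 31.3 CPM or less in every other library. The fast myosin Myh4 was at 18912 CPM or more in every library. Brown adipocyte Ucp1 was at most 0.641 CPM. Lymphocyte markers other than Ighm summed to 32.5 CPM in chow control 2 and 37.2 CPM in chow knockout 1, against 1.22 to 2.89 CPM in the other chow libraries. In batch 2 their sum was 15.5 CPM in Vhl knockout 2, against 5.67 to 6.37 CPM in the other Vhl knockouts.

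One carrier dominated the family. Slc25a4, the muscle ADP/ATP carrier, made up 64.6 to 80.0% of the summed CPM of the 45 genes in each library, and Slc25a3, the phosphate carrier, came next at a mean of 485 CPM over all libraries. The aspartate-glutamate carrier Slc25a12 (aralar) had a mean of 196 CPM, the malate-oxoglutarate carrier Slc25a11 one of 123 CPM, and the NAD carrier Slc25a51 one of 50.5 CPM. Isoforms differed widely in level. The second ADP/ATP carrier of muscle, Slc25a5, had a mean of 23.0 CPM against 3422 CPM for Slc25a4, and citrin, Slc25a13, which does the work of aralar in liver, had a mean of 0.833 CPM. Slc25a4 ran from 1983 to 2829 CPM across batch 1 and from 1944 to 5440 CPM across batch 2, and the calcium-regulated ATP-Mg carrier Slc25a25 ran from 1.87 to 16.7 CPM in batch 1 and from 11.6 to 59.7 CPM in batch 2. The 2 batches were scaled separately and hold different animals, so differences in level between them were not tested.

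**Figure D1:**
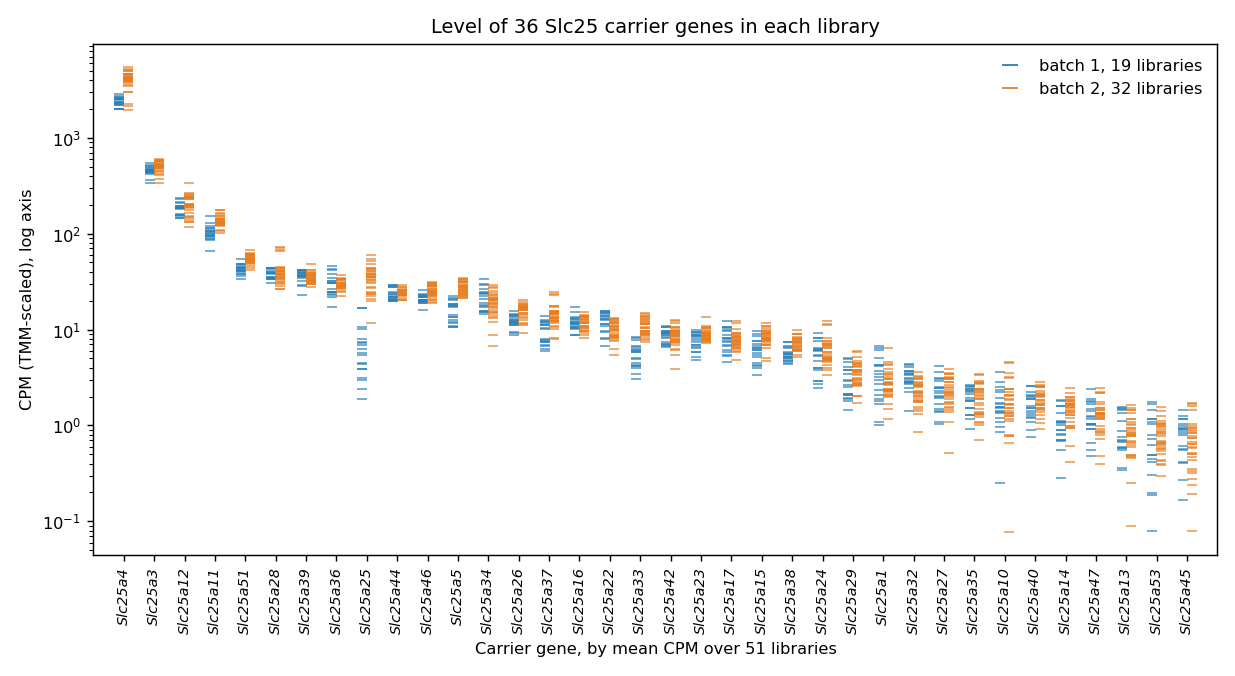
Level of the 36 tested carriers, as TMM-scaled CPM on a log axis, with 1 dash per library (batch 1 in blue, batch 2 in orange). Carriers are ordered by mean CPM. Slc25a4 lies at 1944 CPM or more in every library, and the last genes at the right lie near 1 CPM. Libraries at 0 (2 for Slc25a13, 1 for Slc25a53) cannot be drawn on this axis.

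BMAL1 binds the E-box CACGTG, and HIF binds elements with the core ACGTG or GCGTG. Windows from 250 bases before to 50 bases after a RefSeq start (build GRCm38.p6) were at hand for 35 of the 45 carriers, as 45 windows. On both strands, CACGTG occurred in 8 of the 45 windows (17.8%), which belong to Slc25a1, Slc25a13, Slc25a14, Slc25a15, Slc25a31, Slc25a33 and Slc25a36, and in 7.15% of all 32851 windows. The shorter core, which is also part of the E-box, occurred in 27 of 45 windows (60%) and in 43.8% of all windows. The windows of 4 carriers that the results below turn on were chosen after their values were seen, to show 2 with an E-box (Slc25a33 and Slc25a36), 1 with HIF cores alone (Slc25a28) and 1 with neither (Slc25a12). Capitals mark every match to either motif on either strand. The E-box begins 187 bases before the start of Slc25a36 and 8 bases before that of Slc25a33.
Slc25a36 promoter, chr9:97110992-97111291, minus strand: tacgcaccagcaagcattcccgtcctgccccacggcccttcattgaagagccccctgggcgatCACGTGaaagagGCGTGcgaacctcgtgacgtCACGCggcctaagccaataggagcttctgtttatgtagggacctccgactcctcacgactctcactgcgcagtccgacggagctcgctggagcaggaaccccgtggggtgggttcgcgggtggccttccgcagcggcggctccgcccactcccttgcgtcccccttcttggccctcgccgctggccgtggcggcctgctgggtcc
Slc25a33 promoter, chr4:149774218-149774517, minus strand: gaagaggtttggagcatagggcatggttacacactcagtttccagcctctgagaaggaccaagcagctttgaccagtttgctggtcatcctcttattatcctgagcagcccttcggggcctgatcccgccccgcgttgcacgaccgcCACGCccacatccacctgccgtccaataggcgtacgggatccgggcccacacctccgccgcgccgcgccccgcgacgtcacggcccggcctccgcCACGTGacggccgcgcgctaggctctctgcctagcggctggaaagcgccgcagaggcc
Slc25a28 promoter, chr19:43674832-43675131, minus strand: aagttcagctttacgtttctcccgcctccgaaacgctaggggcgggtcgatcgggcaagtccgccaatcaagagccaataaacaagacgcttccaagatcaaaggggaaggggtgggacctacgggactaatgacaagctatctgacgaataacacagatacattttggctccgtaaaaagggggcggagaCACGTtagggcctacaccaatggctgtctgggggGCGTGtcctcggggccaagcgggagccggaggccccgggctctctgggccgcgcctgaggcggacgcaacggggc
Slc25a12 promoter, chr2:71367706-71368005, minus strand: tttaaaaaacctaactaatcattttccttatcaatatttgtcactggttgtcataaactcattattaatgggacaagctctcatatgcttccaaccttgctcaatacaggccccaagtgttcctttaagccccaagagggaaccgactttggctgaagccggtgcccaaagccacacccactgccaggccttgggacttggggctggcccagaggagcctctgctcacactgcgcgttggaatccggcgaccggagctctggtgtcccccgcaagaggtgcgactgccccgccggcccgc

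In the 7 comparisons of a knockout with its control or of diet within a genotype, tested with edgeR at an adjusted p under 0.05, the family moved most with Vhl loss. Of 36 carriers, 6 rose and 13 fell in Vhl knockouts, where 17.7% of all genes rose and 19.5% fell, and the median log2 change of the carriers was -0.19 against 0.01 for all genes. In the double knockout 2 rose and 8 fell, beside 17.4% and 18.1% of all genes, with a median of -0.15 against 0.01. Scaling decides part of this balance. Without TMM scaling, which shifts the median of all genes by 0.35 for Vhl loss and 0.37 for double loss, 6 carriers rose and 3 fell with Vhl loss, and 13 rose and 1 fell with double loss. Of all 13093 genes, 5815 then rose and 684 fell with Vhl loss, and 6230 rose and 778 fell with double loss. Hence at most 3 of the 13 falls with Vhl loss, and at most 1 of the 8 with double loss, were also called without scaling. Changes below are therefore relative to the bulk of genes.

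Loss of Bmal1 alone moved fewer carriers than Vhl loss, and fewer genes of any kind. On high-fat diet 3 rose and 1 fell in batch 1, where 3.82% of all genes rose and 5.18% fell, and 2 rose and 3 fell in batch 2, where the shares were 6.94% and 6.96%. On chow 1 rose and 2 fell, beside 1.55% and 2.29% of all genes. Median changes of the carriers were 0.00, 0.01 and 0.04, near those of all genes (0.00, -0.01 and 0.00). Without scaling, the numbers that rose and fell were 7 and 1 in batch 1, 3 and 1 in batch 2 and 2 and 1 on chow. Over all genes they were 1227 and 371 of 12762, 1382 and 613 of 13093, and 319 and 206 of 12762, in the same order. A joint fit of the high-fat libraries of both batches, with batch as a term, had 6 carriers higher and 3 lower, beside 11.1% and 11.3% of all genes. Without scaling it had 8 and 2, beside 2692 higher and 789 lower of all 12565 genes.

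**Figure D2:**
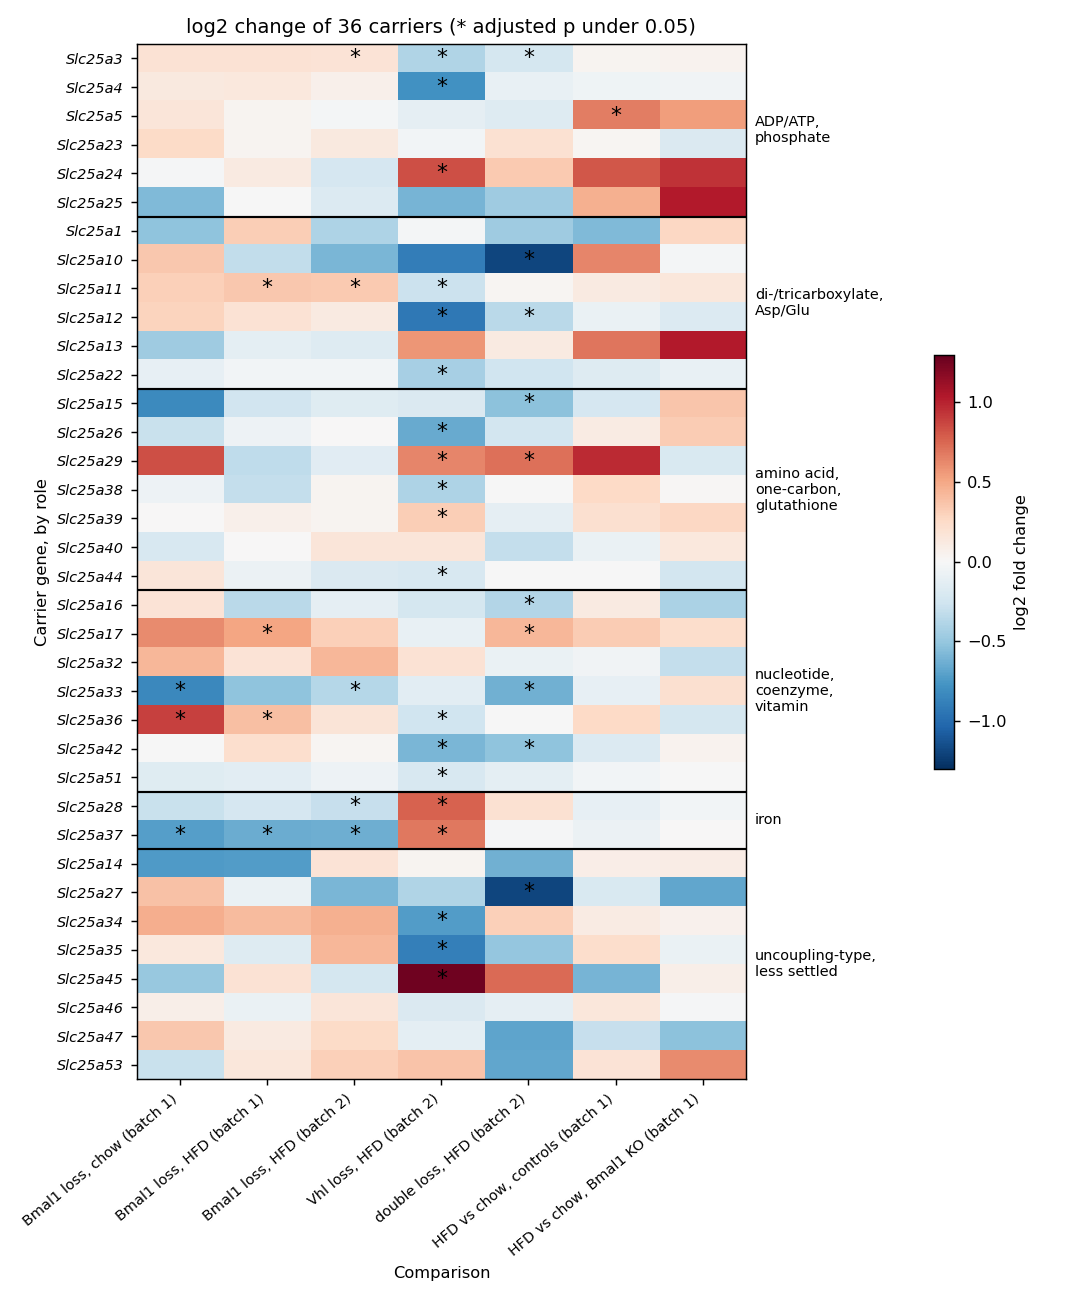
log2 fold change of 36 carriers (rows, grouped by role) in 7 comparisons (columns), with red for higher and blue for lower in the knockout or on high-fat diet. Stars mark an adjusted p under 0.05. The 2 iron carriers are blue in the 3 Bmal1 columns (4 of 6 cells starred), red with Vhl loss and unstarred in the double knockout.

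The 2 iron carriers, the mitoferrins, both rose with Vhl loss, and both fell with Bmal1 loss in batch 2. Slc25a37, mitoferrin 1, the main iron importer of red cell precursors, fell with Bmal1 loss in all 3 settings, rose with Vhl loss, and was not called in the double knockout under the scaling used. In batch 1 on high-fat diet it lay at 7.54, 7.40, 5.92, 7.85 and 6.78 CPM in the Bmal1 knockouts, and in the 7 controls at a lowest of 7.44, a median of 11.4 and a highest of 12.6 CPM. Control 4 was the lone control within the knockouts' range. On chow the 3 knockouts were at 6.28, 7.97 and 6.97 CPM and the 4 controls at 12.3, 10.2, 10.3 and 14.0 CPM, without overlap. In batch 2 the 4 Bmal1 knockouts were at 10.6, 8.10, 7.89 and 10.2 CPM, below all 8 controls (11.7, 14.1 and 17.4 CPM as lowest, median and highest). The log2 changes were -0.64 ± 0.14 (SE; adjusted p 0.0022), -0.72 ± 0.19 (0.022) and -0.63 ± 0.12 (9.9e-05), and the joint fit gave -0.63 ± 0.09 (6.7e-07).

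With Vhl loss Slc25a37 lay at 23.1, 17.5, 24.7 and 23.4 CPM, above its 6 controls (12.2, 13.3 and 17.1 CPM), a log2 change of 0.69 ± 0.12 (adjusted p 6.7e-06). The double knockouts, at 12.4, 13.4, 15.1 and 14.4 CPM, lay within the range of their controls (11.0, 14.6 and 15.4 CPM), with a change of -0.02 and a 95% interval of -0.25 to 0.22. Without scaling the change was 0.33 (adjusted p 0.021), close to the shift of 0.37 for all genes.

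Slc25a28, mitoferrin 2, the importer of tissues in general, rose with Vhl loss and fell with Bmal1 loss in batch 2. There the Bmal1 knockouts were at 30.2, 31.7, 26.6 and 28.6 CPM and the controls at 30.4, 36.4 and 40.6 CPM, overlapping at the edge, with a change of -0.30 ± 0.09 (adjusted p 0.013). In batch 1 it was at 33.6, 30.6, 33.5, 34.2 and 38.3 CPM in knockouts and at 34.3, 38.8 and 43.8 CPM in controls on high-fat diet, and on chow at 35.2, 33.8 and 35.7 CPM in knockouts and at 43.7, 44.3, 43.6 and 39.4 CPM in controls. Neither batch 1 comparison passed (-0.22, adjusted p 0.11, and -0.29, adjusted p 0.18), although the chow groups did not overlap. The joint fit gave -0.25 ± 0.06 (0.00085).

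Vhl knockouts stood apart for Slc25a28, at 71.9, 67.5, 70.5 and 65.6 CPM against 33.7, 41.1 and 43.7 CPM in controls, a change of 0.77 ± 0.09 (adjusted p 1.6e-09). The double knockouts were at 41.5, 43.5, 39.5 and 38.1 CPM within the controls' 26.8, 34.9 and 44.8 CPM (0.20 ± 0.09, adjusted p 0.088, and without scaling 0.56, adjusted p 4.7e-07). All of these knockouts lay above every control but control 6, at 44.8 CPM. The effect in double knockouts differed from that of Vhl loss by -0.71 ± 0.17 for Slc25a37 (adjusted p 0.0046) and -0.57 ± 0.13 for Slc25a28 (0.0025), and from that of Bmal1 loss by 0.61 ± 0.17 (0.0082) and 0.50 ± 0.13 (0.0038). These were among 6 carriers whose effects differed from each, beside 8.56% and 16.7% of all genes called in either direction. Without scaling, 2 carriers had a higher and 2 a lower effect than with Vhl loss (3 and 3 with scaling), and 5 a higher and 0 a lower one than with Bmal1 loss (also 3 and 3 with scaling). Of all 13093 genes, 428 then had a higher and 437 a lower effect than with Vhl loss. Against Bmal1 loss the numbers were 2510 and 294.

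**Figure D3:**
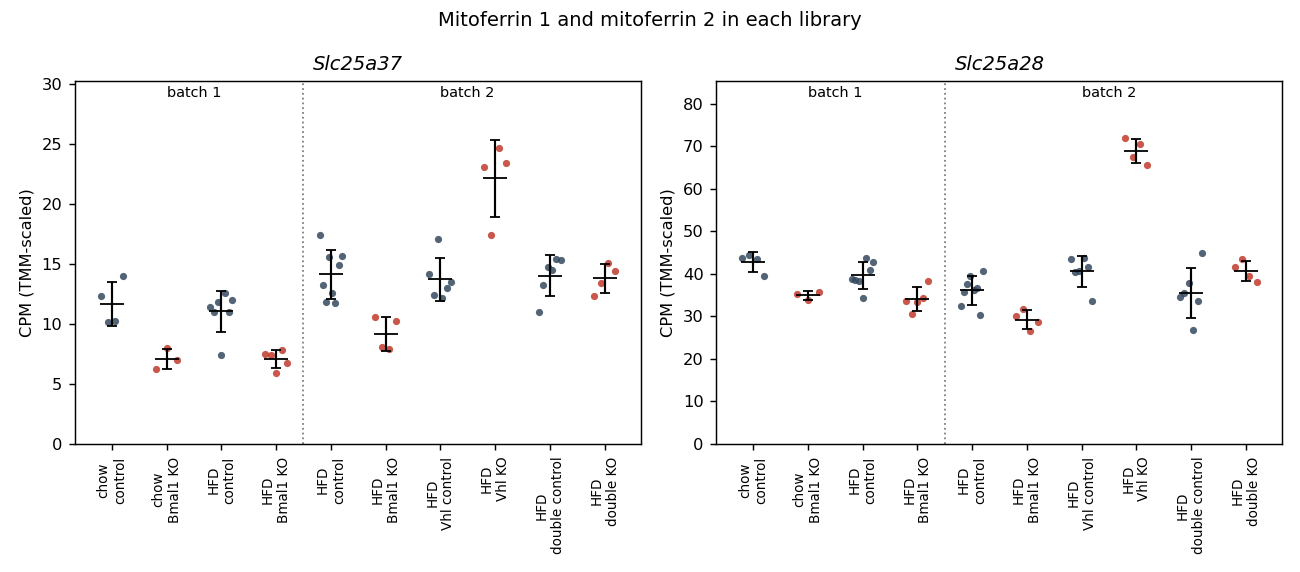
Slc25a37 (left) and Slc25a28 (right) as TMM-scaled CPM in each library, knockouts in red and controls in dark blue, with the group mean and SD as bars. Batch 1 is left of the dotted line. Vhl knockouts lie above their controls for both genes, and double knockouts lie within the range of theirs. For Slc25a28 the double knockouts lie above all their controls but control 6 (44.8 CPM).

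Red cell transcripts moved with part of this pattern. All 5 red blood cell markers (Hba-a1, Hba-a2, Hbb-bs, Hbb-bt and Alas2) rose with Vhl loss, their sum from 877 to 1548 CPM in controls to 5824 to 7031 CPM in knockouts, and all 5 rose in double knockouts, from 867 to 1238 CPM to 3148 to 5277 CPM. None of the 5 was called with Bmal1 loss, and no library had fewer than 4 of the 5 at 1 CPM or more. Their part in the mitoferrin values was not tested, and in whole muscle more cells of a type and more RNA per cell cannot be told apart. The falls of Slc25a37 in batch 1 and 2 on high-fat diet held without any 1 library. The call on chow was lost without control 1, control 4, knockout 1 or knockout 3 (highest adjusted p 0.11), and was also lost without the 2 chow libraries that hold lymphocyte transcripts (-0.70, adjusted p 0.092). The call of Slc25a28 in batch 2 was lost without Bmal1 knockout 8 (0.092).

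Of the 6 tested carriers of adenine nucleotides and phosphate, the highly expressed Slc25a4 and Slc25a3 fell with Vhl loss, Slc25a24 rose and 3 did not pass. Slc25a4 lay at 2129, 3014, 1944 and 2234 CPM in Vhl knockouts and at a lowest of 3562, a median of 3915 and a highest of 4927 CPM in controls, a change of -0.78 ± 0.13 (adjusted p 2.8e-05). In the double knockout no change was called: 4005, 3460, 4324 and 4308 CPM lay within the controls' 2978, 4416 and 5127 CPM (-0.09, 95% interval -0.35 to 0.16). The difference between the 2 effects was 0.69 ± 0.18 (0.017), a call that was lost without Vhl knockout 3 (adjusted p 0.054). With Bmal1 loss in batch 2 the values were 5440, 4235, 5002 and 3892 CPM against 3811, 4451 and 5270 CPM, with knockout 6 above all controls and the other 3 within their range (0.07, interval -0.17 to 0.31). Slc25a4 was not called with Bmal1 loss in batch 1 either.

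Slc25a3 moved by less and in more groups. Its levels in Vhl knockouts, 422, 338, 374 and 435 CPM, were below all controls (486, 509 and 566 CPM), a change of -0.39 ± 0.06 (adjusted p 2.7e-06). The median log2 change of all genes with Vhl loss was 0.35 without scaling. In double knockouts, at 485, 407, 450 and 456 CPM, knockout 1 lay within the controls' 480, 527 and 566 CPM, and the change was -0.23 ± 0.06 (0.0031), which without scaling turned to 0.12. With Bmal1 loss in batch 2 knockouts 6 to 8 (587, 604 and 586 CPM) lay above all controls and knockout 9 (565 CPM) just below the highest of them (482, 518 and 565 CPM), a change of 0.18 ± 0.06 (0.039). That call was lost without any of 8 of the 12 libraries (highest adjusted p 0.12), and the joint fit gave 0.19 ± 0.05 (0.0016). The effect in double knockouts was lower than that of Bmal1 loss by 0.41 on the log2 scale (adjusted p 0.00053).

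Slc25a24, an ATP-Mg/phosphate carrier that answers to calcium, rose with Vhl loss, to 12.3, 8.08, 11.3 and 11.4 CPM from 4.98, 5.92 and 7.06 CPM in controls, with no overlap and a change of 0.84 ± 0.16 (adjusted p 3.9e-05). In double knockouts it lay at 5.81, 7.57, 7.63 and 7.12 CPM against 4.24, 5.48 and 7.24 CPM, which overlapped (0.34 ± 0.16, adjusted p 0.10). Slc25a5, Slc25a23 and Slc25a25 were not called in any knockout comparison of the 2 batches. For Slc25a25 the change with Vhl loss was -0.60 ± 0.29 (adjusted p 0.10), with 11.6 to 32.8 CPM in knockouts and 19.8 to 48.5 CPM in controls.

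**Figure D4:**
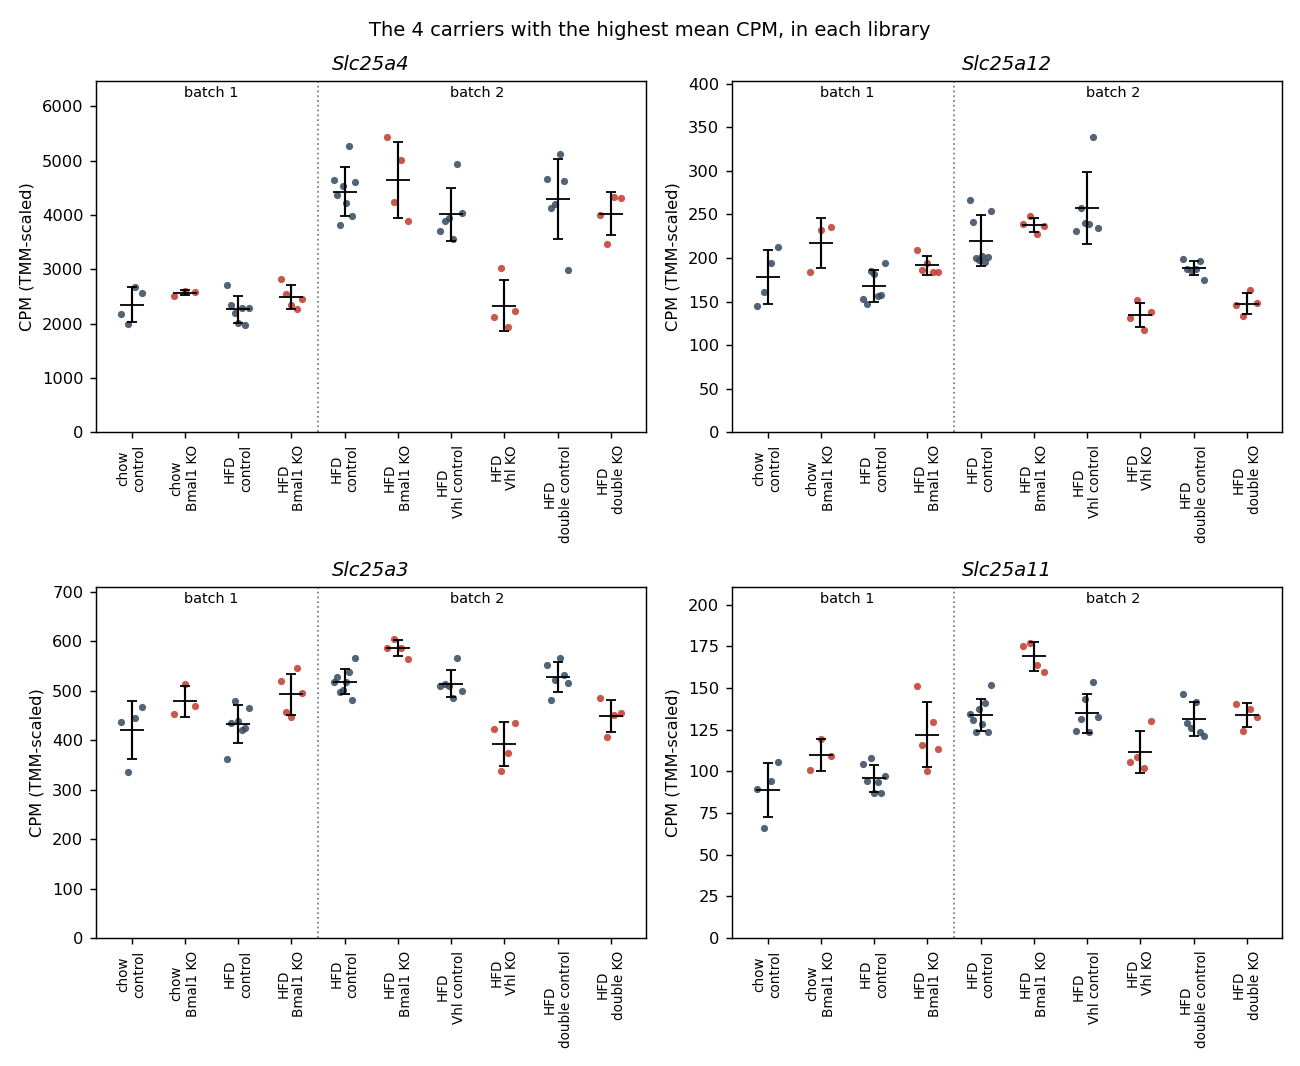
The 4 carriers with the highest mean CPM, as TMM-scaled CPM in each library, knockouts in red and controls in dark blue, with the group mean and SD as bars. In Vhl knockouts Slc25a4 lies between 1944 and 3014 CPM, below all 6 controls, and double knockouts lie within the range of theirs. Slc25a12 lies below its controls in both, in double knockouts only with the TMM scaling drawn here.

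Of 6 carriers of dicarboxylates, tricarboxylates, aspartate and glutamate, 3 fell and 0 rose with Vhl loss, and 2 fell with double loss. Slc25a11 was the 1 called with Bmal1 loss in each batch on high-fat diet, where it rose. Slc25a12, aralar, which exchanges matrix aspartate for cytosolic glutamate, had the smallest adjusted p of the family. It lay at 131, 152, 118 and 138 CPM in Vhl knockouts and at 231, 240 and 339 CPM in controls, a change of -0.93 ± 0.09 (adjusted p 1.7e-10). In double knockouts it lay at 146, 133, 163 and 149 CPM against 174, 188 and 198 CPM. The groups did not overlap, and the change was -0.35 ± 0.09 (0.0024), which was 0.00 without scaling. The effect of double loss was higher than that of Vhl loss by 0.58 ± 0.13 (0.0026) and lower than that of Bmal1 loss by 0.46 on the log2 scale (0.0072). With Bmal1 loss neither batch passed alone. Knockouts lay at 209, 187, 195, 184 and 184 CPM in batch 1 (controls 147, 158 and 194 CPM) and at 239, 248, 228 and 237 CPM in batch 2 (controls 195, 202 and 267 CPM), and the joint fit gave 0.16 ± 0.06 (0.033), a call lost without any of 14 of 24 libraries.

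Slc25a11, which exchanges malate for oxoglutarate, rose with Bmal1 loss. In batch 2 the knockouts, at 175, 177, 164 and 160 CPM, lay above all controls (123, 133 and 152 CPM), a change of 0.34 ± 0.07 (adjusted p 0.00019). In batch 1 they lay at 151, 116, 100, 130 and 113 CPM, overlapping the controls' 86.8, 94.0 and 108 CPM, a change of 0.35 ± 0.10 (0.022). The latter was lost without control 4, control 6, knockout 1 or knockout 4 (highest adjusted p 0.13). With Vhl loss it lay at 105, 109, 102 and 130 CPM against 124, 132 and 154 CPM, overlapping in knockout 4, and fell by 0.27 on the log2 scale (0.0023), which without scaling turned to 0.07. In double knockouts (141, 124, 137 and 133 CPM) it lay within the controls' 121, 127 and 146 CPM (0.03, interval -0.11 to 0.17; without scaling 0.38, adjusted p 0.00016). The effect of double loss was lower than that of Bmal1 loss by 0.31 on the log2 scale (0.024), a call lost without any of 4 of 22 libraries. The reads of Slc25a11 and of Rnf167 on the opposite strand, at a mean of 13.95 CPM, cannot be told apart where they overlap, if the counting used no strand.

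Of the other carriers in this group, the glutamate carrier Slc25a22 fell with Vhl loss (-0.43, adjusted p 0.032), from 8.07 to 12.9 CPM in controls to 5.39 to 9.83 CPM. That call was lost without control 1, control 2, knockout 2 or knockout 3 (highest adjusted p 0.17). The dicarboxylate carrier Slc25a10 fell in double knockouts (-1.20 ± 0.44, adjusted p 0.031), from 1.16 to 2.39 CPM to 0.0783 to 1.42 CPM, with 5 of 10 libraries each ending the call. The citrate carrier Slc25a1 and citrin were not called in any comparison.

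Of 7 carriers of amino acids, methyl donors and glutathione, 2 rose and 3 fell with Vhl loss, 1 rose and 1 fell with double loss, and none was called with Bmal1 loss by edgeR. Slc25a26, which brings S-adenosylmethionine into the matrix, lay at 12.5, 11.3, 11.2 and 9.31 CPM in Vhl knockouts, below all controls (16.3, 16.8 and 20.3 CPM), a change of -0.66 ± 0.10 (adjusted p 9.3e-07). In double knockouts it lay at 11.6, 14.6, 14.3 and 13.2 CPM and overlapped its controls (13.4, 15.9 and 18.1 CPM; -0.24 ± 0.10, adjusted p 0.053). Its exons overlap those of Lrig1 (15.1 CPM) on the opposite strand. The basic amino acid carrier Slc25a29 rose with Vhl loss (0.64 ± 0.22, 0.017) and with double loss (0.71 ± 0.21, 0.0069), and its effect in double knockouts was higher than with Bmal1 loss (0.86, 0.037).

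The glycine carrier Slc25a38, known in zebrafish and yeast for its role in haem synthesis, fell with Vhl loss (-0.40, adjusted p 0.021), from 6.29 to 9.79 CPM to 5.47 to 6.27 CPM. The glutathione importer Slc25a39 rose (0.32, 0.0063), from 29.9 to 36.6 CPM to 32.6 to 48.5 CPM, and its effect in double knockouts was lower by 0.44 on the log2 scale (0.032). Slc25a44, a carrier of branched-chain amino acids, fell by 0.21 on the log2 scale with Vhl loss (0.040), which without scaling turned to 0.13. The ornithine carrier Slc25a15 fell in double knockouts (-0.53 ± 0.15, 0.0048), from 6.86 to 10.3 CPM to 4.66 to 8.09 CPM. The Vhl calls were lost without knockout 1 for Slc25a29 (0.071), without control 2, control 4 or knockout 1 for Slc25a38 (0.079 at most), without knockout 3 for Slc25a39 (0.091) and without any of 7 of 10 libraries for Slc25a44 (0.11 at most). Without double knockout 2 the call of Slc25a29 there was lost (0.077). Its difference from Bmal1 loss was lost without any of 9 of 22 libraries, and the difference of Slc25a39 without Vhl knockout 1 or 3, double control 6 or double knockout 3.

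Of 7 carriers of nucleotides, coenzymes and vitamins, 3 fell with Vhl loss and 3 fell and 1 rose with double loss. With Bmal1 loss 2 rose in batch 1 on high-fat diet, 1 rose and 1 fell on chow, and 1 fell in batch 2. The pyrimidine nucleotide carriers Slc25a33 and Slc25a36, which supply the matrix with nucleotides for its own DNA and RNA, went opposite ways with Bmal1 loss. Slc25a36 lay at 37.5, 42.7 and 42.3 CPM in chow Bmal1 knockouts, well above the 4 controls (24.3, 21.8, 24.8 and 17.2 CPM), a change of 0.88 ± 0.15 (adjusted p 0.00013). On high-fat diet in batch 1 it lay at 30.6, 45.8, 32.3, 34.2 and 30.7 CPM and overlapped the controls (22.8, 24.6 and 32.3 CPM), a change of 0.40 ± 0.11 (0.019). That call was lost without control 5, control 7 or knockout 2 (highest adjusted p 0.15). In batch 2 it was not called: knockouts at 30.2, 33.5, 33.8 and 29.9 CPM overlapped controls at 24.5, 28.8 and 31.4 CPM (0.16 ± 0.09, adjusted p 0.25). The joint fit gave 0.29 ± 0.07 (0.0014).

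With Vhl loss Slc25a36 lay at 26.4, 25.0, 27.9 and 27.3 CPM, below the controls' 29.0, 32.6 and 33.9 CPM. It fell by 0.26 on the log2 scale (0.029), which turned to 0.09 without scaling, and 7 of 10 libraries each ended the call when left out (highest adjusted p 0.083). Double knockouts (34.7, 30.8, 22.3 and 30.9 CPM) overlapped their controls (26.8, 28.7 and 37.5 CPM; -0.01, interval -0.19 to 0.17; without scaling 0.35, adjusted p 0.0020).

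Slc25a33 fell with Bmal1 loss and with double loss. On chow it lay at 3.44, 3.94 and 4.12 CPM in knockouts and at 8.35, 4.97, 8.22 and 5.89 CPM in controls, without overlap (-0.84 ± 0.24, adjusted p 0.044). In batch 2 it lay at 10.7, 9.22, 7.75 and 9.61 CPM against 9.45, 12.1 and 13.7 CPM, overlapping (-0.38 ± 0.12, 0.027). Batch 1 on high-fat diet, at 4.27, 4.21, 4.50, 3.06 and 6.00 CPM against 5.01, 6.33 and 7.76 CPM, did not pass (-0.52 ± 0.18, adjusted p 0.070), and the joint fit gave -0.43 ± 0.10 (0.00078). In double knockouts all 4 values (8.88, 8.45, 8.86 and 7.43 CPM) lay below the controls (11.3, 12.9 and 14.5 CPM), a change of -0.62 ± 0.13 (0.00011). The median log2 change of all genes there was 0.37 without scaling. With Vhl loss alone, 9.65, 9.31, 10.4 and 8.78 CPM lay within 7.92, 10.0 and 14.7 CPM (-0.14, interval -0.39 to 0.12). The chow call was lost without any of 5 of 7 libraries (highest adjusted p 0.16) and without both chow libraries that hold lymphocyte transcripts (-0.90, 0.081). The batch 2 call was lost without control 13, knockout 7 or knockout 8 (0.18 at most).

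Slc25a51, the NAD carrier, lay at 41.6, 49.1, 45.5 and 44.1 CPM in Vhl knockouts, overlapping the controls' 48.4, 51.7 and 58.0 CPM, and fell by 0.21 on the log2 scale (adjusted p 0.016), which turned to 0.14 without scaling. The call was lost without control 2, knockout 1 or knockout 4 (0.077 at most). The coenzyme A carrier Slc25a42 lay at 5.47, 7.77, 6.05 and 3.87 CPM in Vhl knockouts, overlapping the controls' 6.20, 9.42 and 10.7 CPM, and fell (-0.59 ± 0.16, adjusted p 0.0027). It also fell with double loss (-0.52 ± 0.15, 0.0052), where 7.78, 6.84, 7.55 and 7.28 CPM lay below all controls (8.48, 10.5 and 12.6 CPM). Without scaling neither passed (-0.23, adjusted p 0.22, and -0.16, adjusted p 0.36). With Bmal1 loss in batch 2 the groups overlapped, knockouts at 10.6, 9.86, 7.35 and 8.53 CPM and controls at 7.43, 8.83 and 10.5 CPM (0.02, interval -0.25 to 0.30).

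The peroxisomal carrier Slc25a17 rose with Bmal1 loss among the high-fat animals of batch 1 (0.51 ± 0.15, 0.028), from 5.35 to 9.96 CPM to 8.72 to 12.3 CPM, and with double loss (0.44 ± 0.14, 0.012). It was not called in batch 2 with Bmal1 loss (0.31, adjusted p 0.12), and the joint fit gave 0.43 ± 0.10 (0.0012). Slc25a16 fell with double loss (-0.38, 0.010). The Bmal1 call of Slc25a17 was lost without any of 6 of 12 libraries (0.11 at most), its double-loss call without double knockout 1 or 3 (0.090), and that of Slc25a16 without double knockout 4 (0.051).

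Carriers of the uncoupling type and those whose substrate is less settled numbered 8, of which 1 rose and 2 fell with Vhl loss and 1 fell with double loss. Slc25a27, expressed chiefly in brain, lay at 2.08, 0.510, 1.46 and 1.10 CPM in double knockouts, below all controls (2.19, 2.96 and 3.48 CPM), a change of -1.19 ± 0.28 (adjusted p 0.00055). With Vhl loss it lay at 2.09, 1.39, 2.17 and 2.82 CPM against 1.69, 2.79 and 3.92 CPM, and with Bmal1 loss in batch 2 at 1.57, 1.52, 1.89 and 1.98 CPM against 1.73, 2.56 and 3.47 CPM. Both sets overlapped and neither passed (-0.39, adjusted p 0.26, and -0.59, adjusted p 0.12). With Vhl loss, of carriers whose substrates are less settled, Slc25a34 (-0.72 ± 0.22, 0.012) and Slc25a35 (-0.89 ± 0.29, 0.014) fell, while Slc25a45 rose (1.27 ± 0.44, 0.019), from 0.241 to 0.831 CPM to 0.945 to 1.69 CPM. Slc25a34 passed in the joint fit of Bmal1 loss (0.45 ± 0.11, 0.0041), and its effect of double loss was higher than that of Vhl loss (1.04 ± 0.31, 0.034). The Vhl calls were lost without knockout 2 or 3 for Slc25a34 (0.069 at most), without control 2 or knockout 2 for Slc25a35 (0.053) and without knockout 2 for Slc25a45 (0.053). The difference of Slc25a34 was lost without any of 9 of 20 libraries. Exons of Slc25a35 overlap those of Rangrf (9.33 CPM) on the opposite strand.

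Slc25a48, another carrier of less settled substrate, lay below the filter on low counts and was singled out after its values were seen. It had 4, 7, 7 and 13 counts in the Vhl knockouts (0.398, 0.539, 0.662 and 1.36 CPM) and 2, 6, 5 and 4 counts in the double knockouts (0.219, 0.437, 0.385 and 0.313 CPM). All 12 of their controls were at 0, which over each control group allows up to 0.0552 and 0.0438 CPM (3 counts, counting error alone). Elsewhere 3 libraries of batch 2 held 1 count each, and batch 1 held none. Fitted with edgeR without the filter, it passed with Vhl loss (adjusted p 2.3e-05) and with double loss (0.00059). Of the other 8 carriers below the filter, that fit called Slc25a18 with Vhl loss (0.034), at 0 in all 4 knockouts and at most 4 counts in controls, and Slc25a30 in the joint fit of Bmal1 loss (0.034), at 0 in all 9 knockouts and above 0 in 4 of 15 controls, at most 5 counts.

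**Figure D5:**
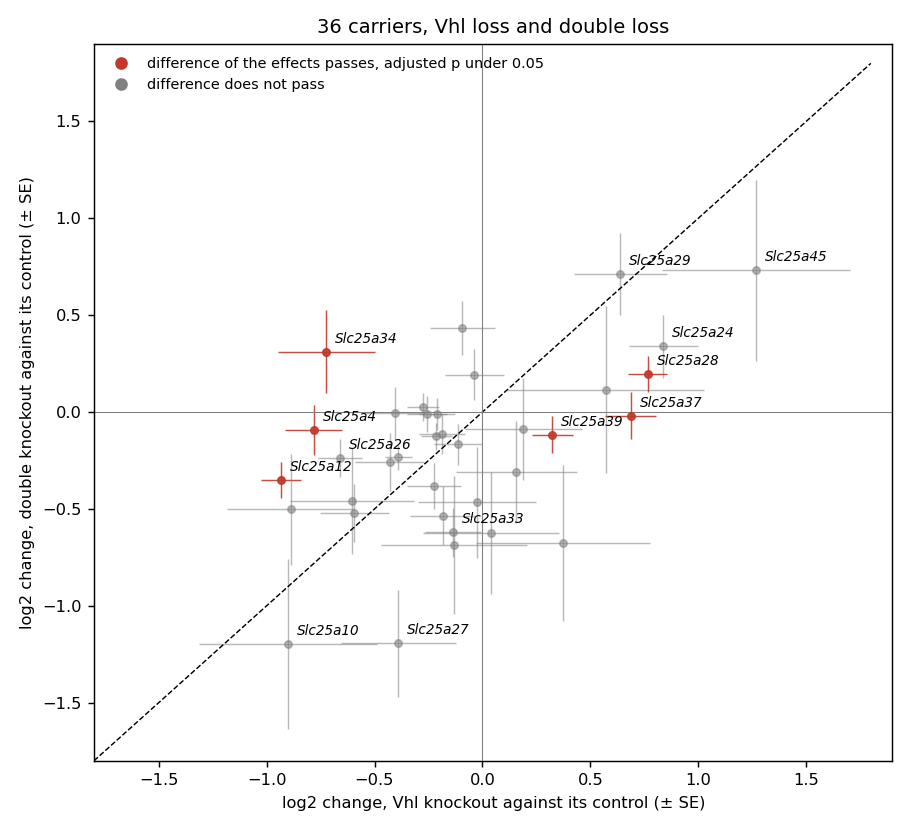
log2 change of each of 36 carriers in Vhl knockouts (horizontal axis) and in double knockouts (vertical axis), each against its own controls, with SE as bars and the line of equal change dashed. The 6 carriers in red have effects that differ between the knockouts, Slc25a4 for example at -0.78 and -0.09.

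Few genes of any kind were called with high-fat diet, carriers included. In floxed controls 1 rose and 0 fell, beside 1.51% and 0.854% of all genes. That was Slc25a5, the ADP/ATP carrier of dividing cells, at 10.7, 10.5, 10.8 and 13.5 CPM on chow and at a lowest of 11.8, a median of 18.4 and a highest of 22.5 CPM on high-fat diet (0.67 ± 0.15, adjusted p 0.0079). In Bmal1 knockouts none was called by edgeR, beside 1.72% and 1.57% of all genes. An unadjusted p under 0.05 by edgeR held for 3 of 36 carriers and for 2039 of all 12762 genes. DESeq2 called 2 carriers, beside 298 genes higher and 278 lower. Slc25a5 there lay at 12.7, 13.5 and 11.9 CPM on chow and at 17.1, 18.7, 17.7, 21.4 and 17.7 CPM on high-fat diet, without overlap (0.55 ± 0.17, adjusted p 0.064). The change of Slc25a24 was 0.81 ± 0.24 on the log2 scale in controls (adjusted p 0.073) and 0.93 ± 0.28 in knockouts (0.059). In the controls, chow animal 2, at 6.01 CPM beside 2.48, 2.71 and 2.89 CPM in the other 3, holds the lymphocyte transcripts given above. Without it and chow knockout 1 the values for Slc25a24 were 1.21 (adjusted p 0.0064) and 1.01 (0.046). For the difference in diet effect between genotypes, no carrier and 0% of all genes were called by edgeR. DESeq2 also called 0 carriers, beside 2 genes higher and 1 lower. By edgeR 3 carriers had an unadjusted p under 0.05, beside 575 of all 12762 genes.

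Genes that work beside the carriers moved in part with the same groups. The 6 enzymes of the malate-aspartate and glycerol phosphate shuttles all fell with Vhl loss (median -0.77): Gpd2 by 1.16, Mdh1 by 1.00, Got1 by 0.78, Gpd1 by 0.76, Got2 by 0.63 and Mdh2 by 0.41 on the log2 scale. In double knockouts 5 of 6 fell (median -0.44), Gpd2 with -0.75 and Gpd1 with -0.66; without scaling 5 fell with Vhl loss, and 2 fell and 1 rose with double loss. With Bmal1 loss in batch 2, Got1 (0.34), Got2 (0.39) and Mdh2 (0.33) rose and Gpd1 fell (-0.52), and in batch 1 Got2 (0.34) and Mdh2 (0.31) rose while Gpd1 (-0.42) and Gpd2 (-0.36) fell. On chow Got1 passed (0.58). Slc25a11, Got2 and Mdh2 were higher with Bmal1 loss on high-fat diet in both batches, and lower with Vhl loss, for Slc25a11 only under the scaling used.

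Partners of the ADP/ATP carrier include the outer membrane pores, mitochondrial creatine kinase, adenylate kinases and cyclophilin D. Of 11, 7 fell and 1 rose with Vhl loss and 8 fell and 1 rose with double loss, while without scaling 3 fell and 2 rose, and 3 fell and 3 rose. The outer membrane pore Vdac1 fell in both (-0.90 and -1.06) and with Bmal1 loss (-0.52 in batch 1, -0.41 on chow, -0.51 in batch 2). The matrix adenylate kinase Ak4, a known HIF target, rose by 6.39 and 6.31 on the log2 scale with Vhl and double loss and fell with Bmal1 loss in batch 2 (-1.25). Ak3 fell with Vhl loss (-0.95), with double loss (-1.20) and with Bmal1 loss on high-fat diet (-0.45 and -0.46). Cyclophilin D, Ppif, fell with Vhl loss (-0.93) and double loss (-0.86). Mitochondrial creatine kinase, Ckmt2, fell with Vhl loss (-0.48) and with double loss (-0.20, which without scaling turned to 0.15), and rose with Bmal1 loss in batch 2 (0.21).

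Carriers reach the inner membrane through the TIM22 import pathway. Of its 12 tested genes, 5 fell and 0 rose in each of Vhl loss (median -0.21) and double loss (median -0.14). This balance turned without scaling, to 3 higher and 2 lower with Vhl loss (median 0.13) and 5 higher and 2 lower with double loss (median 0.21). The small intermembrane chaperones Timm9 (-0.78 and -0.77) and Timm10 (-0.55 and -0.75) and the entry pore Tomm40 (-0.73 and -0.36) passed in both, Timm8b (-0.28) and Tomm70a (-0.22) with Vhl loss, and Timm10b (-0.22) and Timm13 (-0.23) with double loss, and these last 4 changed sign without scaling. With Bmal1 loss in batch 2, Timm22 (0.38), Agk (0.67) and Timm8b (0.23) rose. In batch 1 Tomm22 did (0.40), and on chow none of the 12 was called. With diet in controls Timm10 rose (0.69).

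Of the related carriers under other symbols, Ucp3, the uncoupling protein of muscle, fell with Bmal1 loss among the high-fat animals of batch 1 (-0.59) and on chow (-0.61), and was not called in batch 2. Ucp2 rose with Vhl loss (1.25) and double loss (1.24). Mtch1, a divergent outer membrane relative, rose with Bmal1 loss on high-fat diet in both batches (0.41 and 0.32), with Vhl loss (0.32), with double loss (0.29) and with diet in Bmal1 knockouts (0.41). Mtch2 rose with Bmal1 loss in batch 2 (0.20) and fell with Vhl loss (-0.32, which without scaling turned to 0.02). Of 10 regulators of mitochondrial biogenesis, 4 fell and 1 rose with Vhl loss and 5 fell and 1 rose with double loss. Without scaling the numbers were 2 and 3, and 1 and 3. The coactivator Ppargc1a fell in both (-0.998 and -1.71), as did Tfam, the packaging factor of mitochondrial DNA (-0.59 and -0.28, the latter turning to 0.08 without scaling), while Ppard rose (0.30 and 0.82). Ppargc1a also fell with Bmal1 loss in batch 1 (-0.73), and rose with diet in controls (0.96) beside Perm1 (0.79).

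Other features of the muscle moved with the same groups. Transcripts of the mitochondrial genome held 27.1 to 34.7% of counts in Vhl knockouts and 34.0 to 38.8% in controls, and 16.6 to 23.0% in double knockouts and 22.3 to 29.4% in controls. Fast fibre markers fell, 5 of 6 with Vhl loss and 6 of 6 with double loss, and 4 of 6 slow fibre markers rose with Vhl loss and none with double loss. Without scaling 3 of 6 fast fibre markers fell in each. Summed slow fibre markers spread from 495 to 3046 CPM among the Vhl knockouts and from 746 to 1283 CPM in controls. All 4 endothelial markers rose with both, their sum from 97.4 to 113 CPM to 187 to 251 CPM with Vhl loss and from 98.2 to 108 CPM to 159 to 215 CPM with double loss. Macrophage markers rose in 3 of 5 with Vhl loss and 0 of 5 with double loss, and fibroblast markers in 2 and 1 of 4. Adipocyte markers fell in 2 of 6 with Vhl loss, and fell in 3 and rose in 1 with double loss. Without scaling, macrophage markers rose in 4 and 2 of 5 and fibroblast markers in 3 of 4 in each, while adipocyte markers rose in 1 and fell in 1 with Vhl loss and rose in 2 and fell in 1 with double loss. Slow fibre markers then rose in 5 and 0 of 6. Of 2 lymphocyte markers tested, Ighm rose with each Bmal1 loss (1.94 to 2.55) and with double loss (1.33) and fell with Vhl loss (-0.77), where Ptprc rose (0.88). The brown adipocyte marker Cidea rose with Vhl loss (1.00) and double loss (1.57), with Ucp1 near 0 as given above. The part of these shifts in the carrier values was not tested.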

How the data were processed

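RNA of whole gastrocnemius (TRIzol and Direct-zol, 300 ng input) was made into 3′ tag libraries with the Lexogen QuantSeq FWD kit, per the labels' protocols. Raw counts per gene symbol were deposited by the authors as 1 table per batch. The submitters' processing notes name FastQC 0.11.4, STAR 2.6.0, the builds mm10 and GRCm38.p4, edgeR 3.26.8 and HTSeq (its version and strand setting not given in the sources used here). Normalized tables of the same libraries were left aside. The batch 2 table holds 27 symbols written as dates, none of them a carrier.

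The counts were tested per batch with edgeR 4.0.16 in R 4.3.3: filterByExpr defaults by group, TMM scaling and robust quasi-likelihood fits over all groups of the batch, which left 12762 and 13093 genes, with 12565 in the joint fit of Bmal1 loss on high-fat diet. Adjusted p-values are Benjamini-Hochberg values over all tested genes, with a threshold of 0.05. Values after ± are SE of the log2 change, and 95% intervals come from the SE. Scripts were tested on simulated counts. Animals are taken as separate mice from their numbers. The p-values set each difference against the spread between libraries within groups, estimated over all groups of the fit. Animals with the same label number in compared groups showed no clear shared deviation (correlations from -0.293 to 0.174, over 2 to 5 pairs per comparison). So few pairs cannot exclude that numbers pair the samples, and the main fits have no block. DESeq2 1.42.0, RLE or no scaling, other filters, fits on the compared groups alone, a replicate block and leaving out each library were tried.

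The carriers, their roles and the other lists were chosen with earlier results of these data known. The 2 carrier genes left out are not reported here. Every other carrier that passed is named. Values per library are given for the 12 with the smallest adjusted p over the 7 main comparisons and the 5 with the highest mean CPM, and those of Slc25a5 were added after seeing the data. Of other lists, at most 6 called genes are named per comparison. Promoter windows are from RefSeq (GRCm38.p6), and exon overlaps from the GENCODE M21 annotation of GRCm38.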

Additional observations from a re-analysis of the deposited data

Results flagged for a closer look

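In 10 of 117 checks of a carrier within a group of 4 to 8 libraries, 1 library stood far from the rest of its group, and chance gives about 1 in 20. Vhl control 5 was the highest for the main carriers, with Slc25a4 at 4927 CPM (next 4031 CPM), Slc25a12 at 339 CPM (next 257 CPM) and Slc25a3 at 566 CPM (next 514 CPM). Leaving it out ended none of the calls of these 3 with Vhl loss. Among the mitoferrins, Slc25a28 was low in Vhl control 6 (33.7 CPM, next 40.5 CPM) and in chow control 4 (39.4 CPM, next 43.6 CPM), and Slc25a37 was low in batch 1 high-fat control 4 (7.44 CPM, next 11.0 CPM). Slc25a24 was high in chow control 2 (6.01 CPM, next 2.89 CPM), the control with lymphocyte transcripts, and low in batch 2 Bmal1 knockout 8 (3.77 CPM, next 4.60 CPM). Slc25a36 was high in batch 1 high-fat Bmal1 knockout 2 (45.8 CPM, next 34.2 CPM) and in double control 6 (37.5 CPM, next 29.1 CPM).

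For 9 carriers the effect of double loss differed from that of a single loss by edgeR's test of the difference. Against each single loss, 3 of 36 carriers had a higher and 3 a lower effect. Of all genes, 16.7% were called in either direction against Bmal1 loss and 8.56% against Vhl loss. The counts without scaling, which differ, are given above with the mitoferrins. Against Bmal1 loss the log2 effect was higher for Slc25a29 (0.86), Slc25a37 (0.61) and Slc25a28 (0.50) and lower for Slc25a12 (-0.46), Slc25a3 (-0.41) and Slc25a11 (-0.31). Against Vhl loss it was higher for Slc25a34 (1.04), Slc25a4 (0.69) and Slc25a12 (0.58) and lower for Slc25a37 (-0.71), Slc25a28 (-0.57) and Slc25a39 (-0.44). Each of these contrasts has its own controls on both sides.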

How the results depend on the processing

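Of 63 calls of single carriers, all 63 held with DESeq2, with RLE scaling and without the robust option, 56 without a low-count filter and 61 of the 62 tested at a mean log2 CPM of 1 or more. With counts of the mitochondrial genome left out 61 held, and in fits of the compared groups alone 45 of 54. Without scaling 37 held and 6 changed sign: with Vhl loss Slc25a11 (0.068), Slc25a36 (0.089), Slc25a44 (0.13) and Slc25a51 (0.14), and with double loss Slc25a3 (0.12) and Slc25a12 (0.0047). Numbers of carriers called also moved without scaling, from 4 to 8 with Bmal1 loss in batch 1 and from 19 to 9 with Vhl loss. Of all genes, 1227 then rose and 371 fell in batch 1 (488 and 661 with scaling). With Vhl loss 5815 rose and 684 fell (2320 and 2556 with scaling). The replicate block left 41 of 63 calls. Under the block, 1 carrier was called with Bmal1 loss in batch 1 (4 without it), 1 on chow (3), 1 in batch 2 (5), 5 in both batches (9), 2 with diet in controls (1) and 1 for double against Bmal1 loss (6). Calls over all genes dropped as well. In batch 1, 341 rose and 488 fell (488 and 661 without the block). The numbers were 165 and 230 on chow (198 and 292) and 228 and 370 in batch 2 (909 and 911). They were 784 and 904 in both batches (1396 and 1419) and 174 and 91 with diet in controls (193 and 109). For double against Bmal1 loss, 372 were higher and 345 lower (1007 and 1184). On chow, the 2 groups alone gave 1 call, and over all genes 132 higher and 181 lower. With diet in controls DESeq2 called 3 and no filter 2, and in Bmal1 knockouts (0 by the test used) DESeq2, no filter and the groups alone called 2 each. Over all genes with diet in controls, DESeq2 called 275 higher and 154 lower, and no filter 296 and 196. In Bmal1 knockouts DESeq2 called 298 and 278, no filter 330 and 285 and the groups alone 264 and 196 (219 and 200 by the test used).

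Leaving out each library in turn ended 28 of 63 calls at least once. Numbers called ranged from 2 (without knockout 1 or 2) to 5 with Bmal1 loss in batch 1, from 1 (without control 1, knockout 1 or knockout 3) to 3 on chow, from 1 to 2 with diet in controls, from 0 to 1 in knockouts, from 2 (without knockout 8; 3 without knockout 7) to 5 in batch 2, from 13 to 19 with Vhl loss, from 8 to 12 with double loss, and from 3 (without Vhl knockout 3) to 8 for double against Vhl loss. These ranges are for carriers alone, without the calls of all genes beside them. Without the 2 chow libraries that hold lymphocyte transcripts, an alternative chosen after seeing the data, 1 carrier was called on chow, 2 with diet in controls and 1 in knockouts. Of all 12985 genes, 144 were then higher and 220 lower on chow. The numbers were 159 and 98 with diet in controls and 226 and 203 in knockouts. The cause of these changes was not tested. Low counts limit Slc25a10, Slc25a13, Slc25a27 and Slc25a45, and the 9 carriers below the filter had at most 13 counts in a library, of which the fit without it called Slc25a48 and Slc25a18 with Vhl loss, Slc25a48 with double loss and Slc25a30 in the joint fit.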
